A study of Rattus norvegicus with 12 samples.

Results

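The transcripts of 10 secreted protease inhibitors and close partners were followed in rat liver: the macroglobulins A2ml1 and Pzp, the bikunin precursor Ambp, the inter-alpha-trypsin inhibitor heavy chains Itih1, Itih2, Itih3 and Itih4, and the clade A serpins Serpina1, Serpina6 and Serpina10. They are 10 of the 40154 rows of the deposited gene table, found by symbol, and all 10 passed the filter on low counts, which kept 15916 genes. A2ml1 was selected on its measured level, which was low with S-allylmercaptocysteine on the high fat diet against that diet alone, so its values there are a description and carry no test. The other members were listed with it as secreted inhibitors and partners, with earlier results of these data known.

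Macroglobulins are large thioester proteins that trap a protease after it cuts a bait region. Serpins present a reactive loop that, once cut, locks the protease in an inactive complex. The inter-alpha-trypsin inhibitor family consists of bikunin, a small Kunitz inhibitor, and heavy chains that are joined to it through chondroitin sulfate and can be passed on to hyaluronan in the matrix. Hepatocytes secrete most of these proteins into plasma, and several belong to the acute phase response.

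The study measured liver RNA of Sprague Dawley rats in 4 groups of 3 libraries. Control rats had a normal diet, Control+SAMC rats a normal diet with S-allylmercaptocysteine (SAMC, an organosulfur compound of aged garlic), HFD rats a high fat diet, and HFD+SAMC rats a high fat diet with SAMC. The labels give no age, sex, dose or duration and do not say whether libraries came from separate animals, so p-values measure the spread between these libraries, which may be technical. Replicates are numbered as in the sample titles, 2 to 4 in HFD and 1 to 3 elsewhere. The design asks what the diet changes, what SAMC changes on each diet, and whether the SAMC difference depends on the diet.

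Library totals were 45680738 to 61937544 counts, and the members took 3.10% (HFD replicate 3) to 4.35% (Control replicate 3) of them. Hepatocyte markers (Alb, Ttr, Tf, Apoa1, Cps1 and Tat) were high in every library, at a summed 110000 to 338000 CPM (counts per 1e+06 counts, library sizes scaled by TMM). Fga, a fibrinogen chain and acute phase marker, split the libraries: HFD replicates 2 and 3, Control replicate 2 and Control+SAMC replicate 1 had 3378 to 3822 CPM, and 8 had 8221 to 18520 CPM. Muscle RNA was present in 1 library, HFD+SAMC replicate 3, where Acta1 reached 439.7 CPM (0.135 CPM or less elsewhere). For 1 gene, the length behind the deposited RPKM was 3377 bp for Control and HFD+SAMC (here set 1) and 4432 bp for Control+SAMC and HFD (set 2), and no label says whether anything else differed between them. Each comparison of a diet or of SAMC alone therefore crosses the sets, averages over the other factor are balanced over them, and the interaction of diet and SAMC cannot be told apart from the set. Fewer hepatocytes and less RNA per hepatocyte cannot be told apart in whole liver.

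Per length of transcript, the members spanned over 3 orders of magnitude. RPKM, counts per 1000 bases of gene and 1e+06 counts, had a median over the 12 libraries of 5841 for Serpina1, 2620 for Ambp, 2232 for Itih4, 1922 for Pzp, 1268 for Itih3, 410.8 for Serpina6, 382.6 for Itih1, 220.0 for Itih2, 2.65 for A2ml1 and 1.88 for Serpina10. The ranges of Ambp, Itih4 and Pzp overlapped, as did that of Serpina6 with those of Itih1 and Itih2, and that of A2ml1 with Serpina10. Between the highest and the lowest library, CPM differed 22.4-fold for A2ml1, 4.64-fold for Serpina6 and 3.45-fold for Serpina10, then 2.40-fold for Serpina1, 2.35-fold for Itih4 and 2.08-fold for Pzp. Itih2 was at 1.86-fold, which is also the median of the tested genes with a mean of at least 1 CPM. Itih1, Itih3 and Ambp varied less, at 1.49-fold, 1.43-fold and 1.37-fold.

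**Figure D1:**
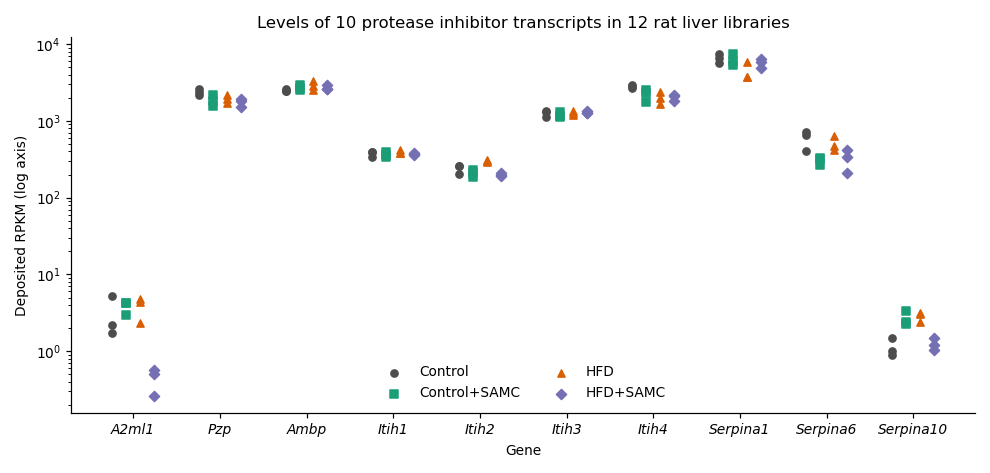
Deposited RPKM of the 10 members (log axis) in each of the 12 libraries, with points coloured by group. A2ml1 and Serpina10 lie below 10 RPKM, the other 8 lie above 180 RPKM, and the 3 HFD+SAMC points of A2ml1 lie below its other 9.

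A2ml1 (alpha-2-macroglobulin-like 1) is a broad-range inhibitor best known from the upper layers of the epidermis. It lies on the minus strand of chromosome 4, at 161863609 to 161907897 in the table, which names no genome build. Its promoter is shown because A2ml1 differed most among the members. The 250 bases before the start in RefSeq (GRCr8, chr4:163543420-163543669, minus strand) held none of the 5 motifs described here, so no letter is in capitals.
A2ml1: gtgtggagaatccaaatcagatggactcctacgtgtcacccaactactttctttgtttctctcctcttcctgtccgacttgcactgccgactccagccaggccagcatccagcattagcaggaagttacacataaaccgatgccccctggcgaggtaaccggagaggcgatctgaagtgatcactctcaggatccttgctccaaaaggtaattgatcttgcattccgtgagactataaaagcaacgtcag
The motifs, searched on both strands, were TTGCNNAA (C/EBP), TTCNNNGAA (STAT), CTGGGAA (the acute phase IL-6 element), ACANNNTGT (glucocorticoid receptor) and CAAAGTCCA (HNF4). No match says only that these letters are not in this window.

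A2ml1 was at 25.6, 10.2 and 11.3 CPM in Control replicates 1 to 3 and at 19.4, 22.1 and 14.4 CPM in Control+SAMC. It was at 21.5, 9.26 and 19.6 CPM in HFD replicates 2 to 4 and at 1.14, 2.16 and 2.58 CPM in HFD+SAMC. The 3 HFD+SAMC libraries were the lowest of the 12, with 74, 138 and 167 counts against 417 to 1343, while the other 3 groups overlapped one another. HFD+SAMC was below HFD by a log2 fold change of −3.09 ± 0.46 (SE), 8.53-fold, and below Control, which is in the same library set, by −3.00 ± 0.46. The difference from HFD is what chose the gene, and the HFD+SAMC libraries it rests on are also those of the difference from Control. All 3 HFD+SAMC libraries were below the other 9 for 170 of 15916 genes (1.07%).

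On the normal diet, in 6 libraries outside the comparison that chose the gene, A2ml1 was at 18.6 ± 3.92 CPM (SD, n = 3) with SAMC and 15.7 ± 8.59 CPM without it. That difference of 0.25 ± 0.42 on the log2 scale did not pass (adjusted p = 0.915, edgeR's quasi-likelihood test), and its sign turned to −0.02 without the 4 libraries of low Fga. HFD differed from Control by 0.09 ± 0.42 and from Control+SAMC, its own set, by −0.15 ± 0.42. The HFD+SAMC level did not rest on the library with muscle transcripts: without it the difference from HFD was −3.34, and over every library left out in turn it was −3.38 to −2.82. The 6 markers of squamous epithelium, where A2ml1 is also made, summed to 1.03 to 2.79 CPM (Krt5, Krt14, Krt10, Dsg3, Ivl and Sprr1a). Of these, 3 were at 0 in every library. The sum was 1.22 to 1.76 CPM in HFD+SAMC, 1.63 to 2.79 CPM in HFD, 1.37 to 2.64 CPM in Control and 1.03 to 1.55 CPM in Control+SAMC. The part of squamous cells in the A2ml1 level was not tested.

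The genes whose pattern over the 12 libraries was most like that of A2ml1 were found by Pearson correlation of log2(CPM + 0.5) among 11112 genes with a mean of at least 1 CPM. They were Hnf4a, the hepatocyte nuclear receptor (r = 0.88, Spearman's rho = 0.70), the glucocorticoid-induced factor Klf9 (0.88 and 0.83), the phosphodiesterase Smpdl3b (0.87 and 0.74), the CREB relative Atf1 (0.87 and 0.87) and Apcs, the pentraxin serum amyloid P (0.86 and 0.82). Each of the 12 points is 1 library, and the 3 of HFD+SAMC carry much of the spread. Hnf4a was at 500 to 649 CPM in HFD+SAMC and 874 to 1240 CPM in the other 9 libraries, and its difference from HFD was −0.71 on the log2 scale, given with no test since its likeness to A2ml1 chose it. Apcs was at 437 to 506 CPM against 551 to 815 CPM. Opposed to A2ml1 were Abcd2, a peroxisomal transporter of very long fatty acids (r = −0.90, rho = −0.64), at 6.93 to 11.5 CPM in HFD+SAMC and 1.14 to 3.50 CPM elsewhere, and the putative helicase Dqx1 (−0.90 and −0.73). By Spearman's rho Hnf4a ranked 48 and Atf1 ranked 1.

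**Figure D2:**
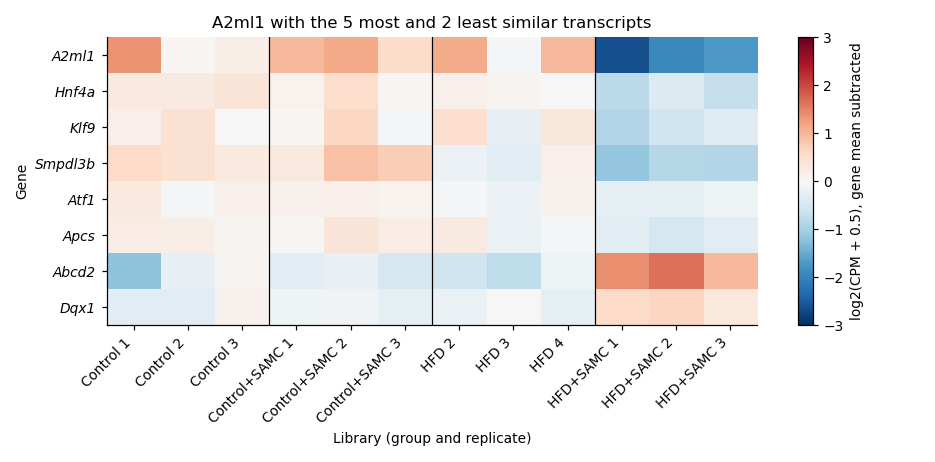
A2ml1, the 5 transcripts most like it and the 2 most opposed to it, as log2(CPM + 0.5) minus each gene's mean (colour) in each library (columns). In the 3 HFD+SAMC columns A2ml1, Hnf4a and Apcs are low and Abcd2 (6.93 to 11.5 CPM) is high.

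Pzp, in the rat the liver's constitutive alpha-1-macroglobulin, is the neighbour of A2ml1 on chromosome 4 (161804792 to 161850877, minus strand), 12731 bases away.

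Pzp was at 10440, 13870 and 13440 CPM in Control and at 7106, 9498 and 10440 CPM in Control+SAMC. It was at 8595, 6787 and 9877 CPM in HFD and at 6657, 7871 and 8699 CPM in HFD+SAMC. Control held the highest levels, with all HFD and all HFD+SAMC libraries below it, while Control+SAMC met the lowest Control value. HFD differed from Control by −0.58 ± 0.22 (adjusted p = 0.379) and Control+SAMC by −0.48 ± 0.22 (adjusted p = 0.512). HFD+SAMC and HFD overlapped, at −0.12 ± 0.22. The RPKM ratio of Pzp to A2ml1 was 366 to 1360 in the other 9 libraries and 3360 to 5820 in HFD+SAMC. This ratio follows from the low A2ml1 level that chose the gene, so nothing is read from it. The RPKM of Pzp itself was 1532 to 2576.

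Ambp encodes a precursor that is cut into alpha-1-microglobulin, a heme and radical scavenger, and bikunin. Its CPM differed least of the members between the highest and the lowest library (1.37-fold), while the median spread within groups was smaller for Itih3 (a CV of 8.31%) and Itih1 (10.9%) than for Ambp (11.1%). Its level was 3281, 4240 and 3536 CPM in Control, 3150, 4129 and 3548 CPM in Control+SAMC, 3097, 3651 and 3586 CPM in HFD, and 3143, 3539 and 3185 CPM in HFD+SAMC. All 4 groups overlapped, and the log2 differences were −0.10 ± 0.17 for HFD against Control (adjusted p = 0.889) and −0.03 ± 0.17 for Control+SAMC against Control (adjusted p = 0.975). Their signs turned, to 0.21 and 0.11, when libraries were scaled by their totals alone.

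The heavy chains Itih1, Itih3 and Itih4 lie side by side on chromosome 16, at 7012376 to 7026542, 6983779 to 7007288 and 6970367 to 6985538. Itih1 ranged from 959 to 1430 CPM and its groups overlapped. Itih3 was at 4811, 4778 and 4920 CPM in Control and at 4147, 3442 and 4471 CPM in HFD, with all HFD libraries below Control. That difference was −0.27 ± 0.17 (adjusted p = 0.611), and it became 0.02 with scaling by library totals. Control+SAMC, at 3721, 4856 and 4057 CPM, overlapped Control. HFD+SAMC, at 4249, 3962 and 4088 CPM, was below Control and overlapped HFD.

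Itih2, on chromosome 17 at 72160734 to 72197248 (plus strand), is the partner of Itih1 in inter-alpha-trypsin inhibitor, and the table types it as misc_RNA. It was at 654, 1008 and 876 CPM in Control, 542, 770 and 663 CPM in Control+SAMC, 850, 796 and 887 CPM in HFD, and 542, 554 and 623 CPM in HFD+SAMC. HFD+SAMC was below HFD and Control with no overlap, and Control+SAMC was below HFD as well. The log2 difference was −0.56 ± 0.18 for HFD+SAMC against HFD and −0.36 ± 0.18 for Control+SAMC against Control (adjusted p = 0.556). The mean of the SAMC differences on both diets was −0.46 ± 0.13, and it was −0.54 to −0.39 with any 1 library left out. No test is given for HFD+SAMC against HFD or for the mean over diets, because the former chose A2ml1. Of the 10 members, 0 were lower in all 6 SAMC libraries than in the 6 without SAMC, as were 0.383% of genes.

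Ratios within a library do not depend on how libraries are scaled. The RPKM ratio of Itih2 to Itih1 was 0.607 to 0.671 in Control and 0.691 to 0.791 in HFD, and 0.512 to 0.614 in Control+SAMC and 0.507 to 0.596 in HFD+SAMC. On the high fat diet the libraries with SAMC were all below those without it, and on the normal diet the ranges met. The ratio of Itih2 to Ambp was 0.0725 to 0.0787 in Control+SAMC against 0.0838 to 0.104 in Control, and 0.0658 to 0.0823 in HFD+SAMC against 0.0918 to 0.115 in HFD. Every SAMC library was thus below every library without SAMC for this ratio, which was chosen for display with its values known.

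**Figure D3:**
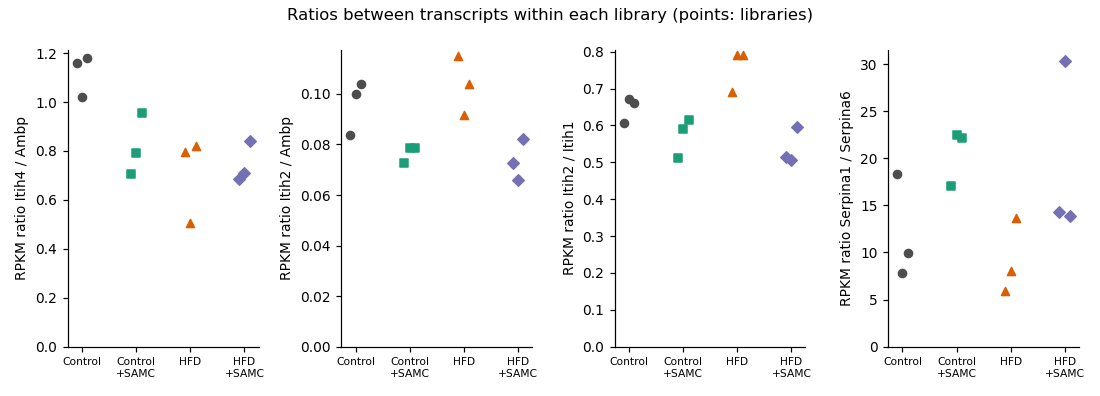
RPKM ratios within each library for Itih4 to Ambp, Itih2 to Ambp, Itih2 to Itih1 and Serpina1 to Serpina6 (axes from 0; points are libraries). Itih4 to Ambp is 1.02 to 1.18 in Control and 0.504 to 0.957 elsewhere, and Itih2 to Ambp is lower in both SAMC groups.

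Itih4, a heavy chain relative that is not linked to bikunin and is known as an acute phase protein, held the most motifs of the members. Its promoter is shown for that reason (RefSeq, GRCr8, chr16:6086735-6086984, plus strand). Capitals mark a C/EBP motif 232 bases before the start and a STAT motif 89 bases before it, whose first letters are also the IL-6 element on the other strand.
Itih4: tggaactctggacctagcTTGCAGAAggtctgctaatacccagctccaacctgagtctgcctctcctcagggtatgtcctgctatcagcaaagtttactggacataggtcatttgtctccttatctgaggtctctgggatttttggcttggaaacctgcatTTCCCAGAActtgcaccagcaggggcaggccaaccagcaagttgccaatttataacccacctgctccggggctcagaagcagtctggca
Of 33469 promoters, 9.22% hold the C/EBP motif in the 250 bases before the start, 7.67% the STAT motif and 9.56% the IL-6 element. The C/EBP motif was also in Itih2. The glucocorticoid receptor motif (5.81% of promoters) and the HNF4 motif (0.338%) were in none of the 8 members with an entry. Serpina6 and Serpina10 had none.

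Itih4 was at 8715, 9906 and 9534 CPM in Control and at 5092, 7502 and 7786 CPM in Control+SAMC. It was at 5659, 4219 and 6735 CPM in HFD and at 4931, 5763 and 6134 CPM in HFD+SAMC. The 3 Control libraries were the highest of the 12, and the other groups overlapped. HFD was below Control by −0.76 ± 0.23 on the log2 scale (adjusted p = 0.249), Control+SAMC by −0.47 ± 0.22 (adjusted p = 0.531) and HFD+SAMC, in the same set as Control, by −0.74 ± 0.22. Averaged over SAMC, the diet difference was −0.52 ± 0.16 (adjusted p = 0.185). None passed, and without the 4 libraries of low Fga, which leaves 1 HFD library, HFD against Control was −0.44 (adjusted p = 0.895). Itih3 and Itih4 overlap by 1760 bases on opposite strands, and the strand setting of the counting is not given in the sources used here, so reads of the shared stretch may be counted for either gene or for neither.

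The serpins Serpina1, Serpina6 and Serpina10 lie in 1 cluster on the minus strand of chromosome 6. Serpina1 (127610241 to 127632265), alpha-1-antitrypsin, is the main plasma inhibitor of neutrophil elastase. It was at 14140, 13190 and 13600 CPM in Control, 9662, 12200 and 14140 CPM in Control+SAMC, 6705, 5886 and 10450 CPM in HFD, and 8428, 11040 and 10450 CPM in HFD+SAMC. All HFD and all HFD+SAMC libraries were below all Control libraries. HFD differed from Control by −0.83 ± 0.24 (adjusted p = 0.245) and the average over SAMC by −0.55 ± 0.17 (adjusted p = 0.194). The level moved with Fga over the 12 libraries (r = 0.65, rho = 0.71), and the lowest HFD libraries, replicates 2 and 3, were those of low Fga. Control replicate 2 and Control+SAMC replicate 1, also of low Fga, were at 13190 and 9662 CPM. Without the libraries of low Fga, which leaves 1 HFD library, the HFD difference was −0.41. The part of the Fga state in this difference was not tested.

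Serpina6 (127523948 to 127534178), corticosteroid-binding globulin, carries glucocorticoids in blood and releases them when its loop is cut. It was at 606, 1326 and 1077 CPM in Control and at 445, 426 and 502 CPM in Control+SAMC. It was at 893, 578 and 596 CPM in HFD and at 463, 286 and 589 CPM in HFD+SAMC. Control+SAMC was below Control and below HFD with no overlap, while HFD+SAMC overlapped HFD by 1 library. Control+SAMC differed from Control by −1.13 ± 0.31, 2.19-fold lower (adjusted p = 0.26), and it did not pass. HFD+SAMC differed from HFD by −0.63 ± 0.31 and the mean over diets was −0.88 ± 0.22, both without a test. The mean was −1.02 to −0.76 with any 1 library left out. Serpina1 and Serpina6 did not keep 1 proportion across groups: their RPKM ratio (Serpina1 to Serpina6) was 17.1 to 22.5 in Control+SAMC, 7.81 to 18.3 in Control, 5.90 to 13.7 in HFD and 13.9 to 30.3 in HFD+SAMC.

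Serpina10 (127500014 to 127508470), the inhibitor that blocks coagulation factor Xa with protein Z, was low in these livers, with 75 to 274 counts a library. It was at 2.46, 1.84 and 1.79 CPM in Control and at 3.57, 4.23 and 5.60 CPM in Control+SAMC. It was at 3.66, 4.21 and 4.94 CPM in HFD and at 1.79, 2.18 and 1.62 CPM in HFD+SAMC. The Control+SAMC and HFD libraries were all above the Control and HFD+SAMC libraries, with no overlap. HFD was above Control by 1.07 ± 0.24 (adjusted p = 0.144) and Control+SAMC by 1.14 ± 0.24 (adjusted p = 0.14), and HFD+SAMC was below Control+SAMC by −1.26 ± 0.24 (adjusted p = 0.0872). HFD+SAMC was below HFD by −1.19 ± 0.24, with no test. None of these differences passed.

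The SAMC difference of Serpina10 on the high fat diet minus that on the normal diet was −2.33 ± 0.34 on the log2 scale, and it passed (adjusted p = 0.0231; edgeR's quasi-likelihood test, Benjamini-Hochberg). It holds the comparison that chose A2ml1, in which members are given no test, and it coincides with the library sets. Serpina10 was also listed with earlier results known, so this p-value is a description and not independent support. Within the sets the differences were −0.12 ± 0.24 (HFD+SAMC against Control) and −0.07 ± 0.24 (HFD against Control+SAMC), and averaged over the other factor they were −0.10 ± 0.17 for diet and −0.03 ± 0.17 for SAMC. Of all genes, 104 (0.653%) lay higher in set 2 than in set 1 with no overlap and 19 (0.119%) the other way. The call was kept without Control replicate 1, Control+SAMC replicate 1 or HFD replicate 2 (adjusted p = 0.0257 to 0.0436). It was lost without any 1 of the other 9 libraries, at 0.0634 and 0.0955 without Control replicates 2 and 3, 0.0562 and 0.0655 without Control+SAMC replicates 2 and 3, 0.0612 and 0.0659 without HFD replicates 3 and 4, and 0.0945, 0.0558 and 0.0855 without HFD+SAMC replicates 1 to 3. A2ml1, the other member of low level, had a value of −3.34 ± 0.62 for the same quantity, with no test, and it did not separate the sets.

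**Figure D4:**
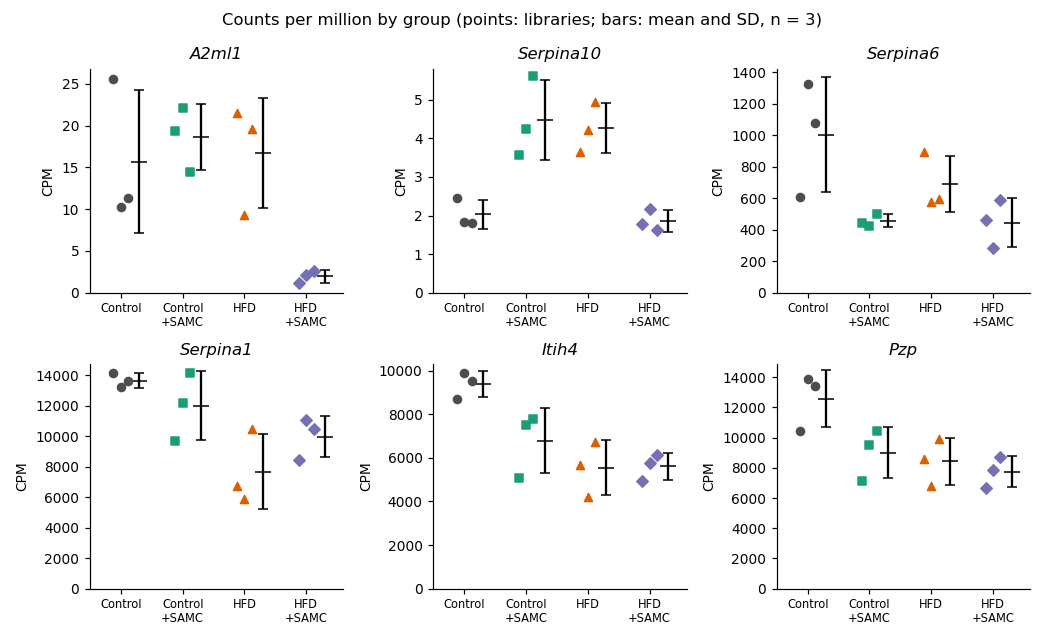
CPM of 6 members by group, with each library as a point and the mean and SD (n = 3) beside them (axes from 0). A2ml1 is low in HFD+SAMC alone, Serpina10 is high in Control+SAMC and HFD, and Serpina1, Itih4 and Pzp are highest in Control.

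Over the 9 members other than A2ml1, 8 log2 fold changes were below 0 and 1 above in HFD against Control, with a median of −0.27 against −0.01 over all genes tested. By edgeR 0 of the 9 tested passed, beside 0.145% of all genes (23 of 15916). At an unadjusted p under 0.05 there were 4 members and 1697 genes (10.7%). All HFD libraries were below all Control libraries for 4 members (Pzp, Itih3, Itih4 and Serpina1), where 6.44% of genes were, and above them for 1 (Serpina10), where 8.27% were. By DESeq2, Serpina10, Serpina1 and Itih4 passed (adjusted p = 0.00397, 0.0168 and 0.0197), among 315 genes. Scaled by library totals alone, 136 genes and 1 member, Serpina10, passed (adjusted p = 0.0397).

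In Control+SAMC against Control, 8 members were below 0 and 2 above, with a median of −0.19 against −0.01 over all genes. By edgeR 0 of the 10 passed, beside 0.119% of all genes (19), and 2 members and 1557 genes (9.78%) had an unadjusted p under 0.05. No overlap was seen for 2 members that were lower (Itih4 and Serpina6; 6.51% of genes) and 1 that was higher (Serpina10; 7.03%). By DESeq2, Serpina10 and Serpina6 passed (adjusted p = 0.00211 and 0.0295), among 219 genes. Both comparisons share the Control libraries.

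Under SAMC, the 9 members other than A2ml1 all had log2 fold changes below 0 on the high fat diet against the normal diet, with a median of −0.20 against 0.01 over all genes, but 4 of them (Ambp, Itih1, Itih3 and Serpina6) turned positive with scaling by library totals. By edgeR 0 of the 9 tested passed, beside 0.0628% of all genes (10), and 1 member and 1732 genes (10.9%) had an unadjusted p under 0.05. By DESeq2 Serpina10 passed (adjusted p = 0.000166, among 272 genes). Of the 9, 1 (Serpina10) was below with no overlap, as were 8.54% of genes, and 0 were above, as were 9.27%. For HFD+SAMC against HFD, which chose A2ml1, 0.0503% of genes passed, and A2ml1, Itih2 and Serpina10 had no overlap below, as had 9.41% of genes, and 0 members had none above, as had 9.4%. Nothing is read from that count.

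Averaged over SAMC, the same 9 members all had log2 fold changes below 0 on the high fat diet, with a median of −0.16 against 0.00 over all genes, and 5 of them (Ambp, Itih1, Itih2, Itih3 and Serpina10) turned positive with scaling by library totals. By edgeR 0 of the 9 tested passed, beside 0.421% of genes (67), and 3 members and 2163 genes (13.6%) had an unadjusted p under 0.05. By DESeq2 Itih4 and Serpina1 passed (adjusted p = 0.0192 and 0.0216, among 538 genes). For the interaction, 1 of 9 tested passed, beside 0.145% of genes (23), and nothing is read from that count. Scaling by library totals shifted the median of all genes by 0.29 in HFD against Control, 0.13 in Control+SAMC against Control, 0.14 in HFD+SAMC against Control+SAMC, 0.22 in the diet average and −0.15 in the interaction, and member values are relative to these. Across members, Pzp and Itih4 ran closest together over the 12 libraries (r = 0.96, rho = 0.97), followed by Itih4 with Serpina1 (0.86 and 0.88) and Itih3 with Itih4 (0.85 and 0.72). These 3 share the scaling of the libraries, and the last pair also shares a stretch of the genome.

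**Figure D5:**
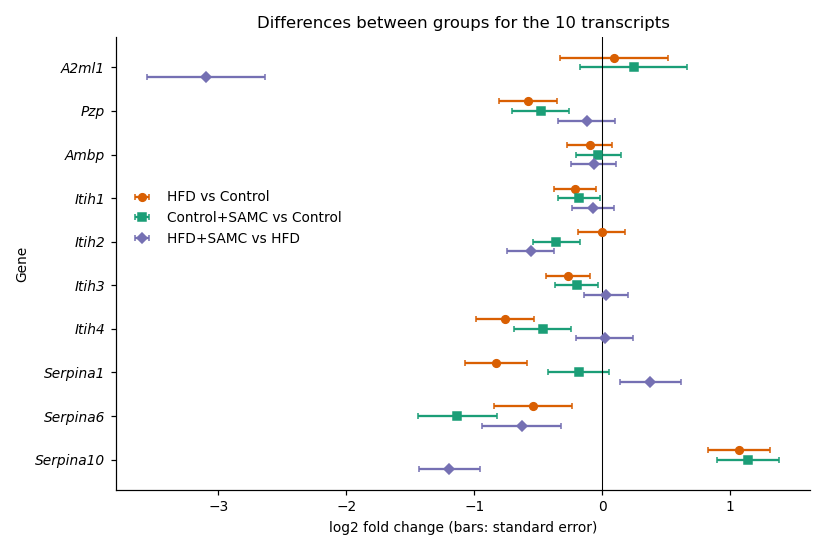
Log2 fold changes with their standard errors for the 10 members in HFD against Control, Control+SAMC against Control and HFD+SAMC against HFD (x axis; 0 is no difference). A2ml1 stands at −3.09 in the last comparison, Serpina6 at −1.13 in Control+SAMC against Control, and Serpina10 is above 0 in the first pair and below 0 in the last.

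Of 11 close relatives tested, 0 passed in any comparison by edgeR. At an unadjusted p under 0.05 there was 1 in HFD against Control (10.7% of all genes), 1 in Control+SAMC against Control (9.78%), 4 in HFD+SAMC against HFD (10.6%) and 7 with SAMC averaged over diet (12.4%). By DESeq2 there were 0, 1 (Serpina11), 1 (Mug2) and 1 (Mug2), among 315, 219, 249 and 436 genes passing. In Control+SAMC against Control, 10 of the 11 were below 0, with a median of −0.45 against −0.01 over all genes, and in HFD against Control 6 were, with a median of −0.08. In HFD+SAMC against HFD 8 were, with a median of −0.71, and with SAMC averaged over diet 9 were, with a median of −0.52, against 0.00 and −0.01 over all genes. HFD+SAMC against HFD chose A2ml1, the SAMC average holds that comparison, and the list was drawn up with earlier results known. Nothing is read from the counts and medians of the relatives in these comparisons. Serpina11, the neighbour of Serpina1, was at 261 to 301 CPM in Control and 140 to 200 CPM in Control+SAMC, a log2 difference of −0.74 (adjusted p = 0.2). Serpina7, the thyroxine-binding globulin, was at 17.0 to 41.9 CPM in Control and 14.3 to 18.7 CPM in Control+SAMC (−0.81, adjusted p = 0.593). Kallistatin (Serpina4) and the protein C inhibitor (Serpina5) were at −0.11 and −0.45.

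A2m, the rat's classic acute phase macroglobulin, was hardly present, at 0.0614 to 2.496 CPM. Its constitutive relatives Mug1 and Mug2, the murinoglobulins, were at 1400 to 5520 and 70.0 to 272 CPM, and both had their lowest mean in HFD+SAMC, where they were at 1400 to 2100 and 70.0 to 129 CPM. Their differences from HFD were −0.91 (adjusted p = 0.373) and −1.23 (adjusted p = 0.208). Cd109, a membrane-bound relative, was at 0.0185 to 0.368 CPM. Of the Serpina3 group, Serpina3c and Serpina3m were also lowest on average in HFD+SAMC (−0.66 and −0.82 against HFD, not past the threshold), while Serpina3n ranged from 1790 to 22800 CPM within the study. Mug1, Mug2 and the Serpina3 genes have near-identical copies, so reads may be split between them and these values are uncertain.

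Of 26 tested genes listed as other secreted inhibitors, 1 passed by edgeR in 1 of the 7 comparisons. This was Apon, apolipoprotein N, named as an apolipoprotein and not as a protease inhibitor. It fell by 0.74 ± 0.12 on the log2 scale with SAMC averaged over diet (adjusted p = 0.0272, beside 0.22% of all genes). It was at 80.3 ± 16.7 and 56.5 ± 3.45 CPM without and with SAMC on the normal diet and at 99.1 ± 6.19 and 50.2 ± 8.84 CPM on the high fat diet (SD, n = 3). The list was drawn up with the low Apon value known, so its place there supports nothing. The trypsin inhibitor Spink1 was at or below 2.07 CPM. The list's median was −0.05 in HFD against Control, where by DESeq2 3 passed, among them Fetub and Kng1, and 0.00 in Control+SAMC against Control, where by DESeq2 0 did. At an unadjusted p under 0.05 there were 6 and 4 of the 26, beside 10.7% and 9.78% of all genes. In HFD+SAMC against HFD, the diet average and the SAMC average, 1, 2 and 1 passed by DESeq2, among 249, 538 and 436 genes. All genes passing by DESeq2 in HFD against Control numbered 315.

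Of 19 tested proteases and partners, 0 passed in any comparison by edgeR. In HFD against Control and in Control+SAMC against Control, 5 and 6 had an unadjusted p under 0.05, beside 10.7% and 9.78% of all genes. By DESeq2 0 passed in either, among 315 and 219 genes, and 1 did in the diet average, among 538 genes. Of the 19, 12 were below 0 in HFD against Control and 15 in Control+SAMC against Control, with medians of −0.27 and −0.17. Proz, the protein Z with which Serpina10 acts, was at −0.40 and −0.37 in these comparisons, and F10, the target factor, at −0.36 and −0.45, while Serpina10 itself was at 1.07 and 1.14. Tmprss6, the hepcidin-regulating membrane protease, was at 534 to 835 CPM in Control and 458 to 474 CPM in Control+SAMC (−0.52, adjusted p = 0.34). Tnfaip6, which moves heavy chains onto hyaluronan, stayed at or below 0.654 CPM. Neutrophil elastase, cathepsin G, proteinase 3 and the hyaluronan synthase Has2 were too low to be tested. The neutrophil markers S100a8, S100a9, Mpo, Elane and Csf3r summed to 0.783 to 10.8 CPM in Control and 1.43 to 3.97 CPM in HFD. They summed to 0.845 to 9.01 CPM in Control+SAMC and 1.91 to 10.2 CPM in HFD+SAMC.

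Of 11 glucocorticoid genes set beside Serpina6, 0 passed in any comparison by edgeR. By DESeq2 1 passed in HFD+SAMC against HFD and 2 passed with SAMC averaged over diet, among 249 and 436 genes. In Control+SAMC against Control 1 had an unadjusted p under 0.05 (9.78% of all genes), 0 passed by DESeq2 and 9 were below 0 (median −0.15). The glucocorticoid receptor Nr3c1 was at 0.00 and its target Fkbp5 at 0.31. Tat, a classic target, was at 456 to 1990 CPM in Control and 317 to 796 CPM in Control+SAMC. Hsd11b1, which regenerates active glucocorticoid, was at 3.79 to 25.4 and 18.9 to 93.7 CPM (2.00, adjusted p = 0.544). Of 17 regulators of hepatocyte secretion, 0 passed by edgeR in any comparison. In HFD against Control 15 were below 0 (median −0.25) and 4 had an unadjusted p under 0.05 (10.7% of all genes). By DESeq2 1, Foxa3, passed there, among 315 genes, while by edgeR it was at −1.22 (adjusted p = 0.163). In HFD+SAMC against HFD, HFD+SAMC against Control+SAMC, the diet average and the SAMC average, 1, 2, 3 and 1 passed by DESeq2. All genes passing numbered 249, 272, 538 and 436. Hnf4a, which its likeness to A2ml1 chose, is in each of these list counts, so nothing is read from its place there. Of 16 acute phase transcripts 0 passed by edgeR in any comparison. By DESeq2 1 passed in HFD+SAMC against HFD, 1 in HFD+SAMC against Control+SAMC, 3 in the diet average and 2 in the SAMC average. These were among the same 249, 272, 538 and 436 genes. Apcs, which its likeness to A2ml1 chose, is in the counts for HFD+SAMC against Control+SAMC and the diet average. Nothing is read from its place there. In HFD against Control 13 were below 0 (median −0.36), 3 had an unadjusted p under 0.05 (10.7% of all genes) and 1, Crp, passed by DESeq2. Among those below 0 was Hamp at −1.14, while Lcn2 was at 1.87 (adjusted p = 0.533).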

How the data were processed

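Per the labels' protocols, total liver RNA was depleted of ribosomal RNA, made into libraries with a NEBNext Ultra kit and sequenced in pairs on an Illumina HiSeq instrument. The authors aligned reads with HISAT2 and deposited a read count per gene from HTSeq, per the labels' protocols. Reads were trimmed with Trimmomatic 0.36 per the submitters' processing notes. Neither build, annotation nor strand setting is given in the sources used here. Each deposited RPKM could be rebuilt from count, gene length and total counts to a relative tolerance of 1e-06, except for 1 gene (RGD1562465), whose implied length was 3377 bp in set 1 and 4432 bp, as listed, in set 2. The other deposited column used is the authors' gene length.

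Counts of the 15916 genes kept by filterByExpr (99.96% of counts) were scaled by TMM and fitted with edgeR 4.0.16 in R 4.3.3 (robust quasi-likelihood, all 12 libraries, 8 residual degrees of freedom, common biological coefficient of variation 0.299). Tests were two-sided, adjusted by Benjamini-Hochberg over all genes, with a threshold of 0.05. Group values are mean ± SD of n = 3 libraries. Alternatives were DESeq2 1.42.0, other scalings, other filters, a replicate block, only the groups compared, and each library left out. Pairs of libraries within a group differed by a chi-square of 87.9 to 645 per degree of freedom, far above sampling noise. On simulated counts for Control+SAMC against Control (15577 genes), 55% of 2-fold and 99% of 4-fold changes were recovered, with 4 false calls of 158. Those counts were drawn independently for each gene and library, with changes placed only in better expressed genes. They held no state shared by libraries, such as that of Fga, so these shares do not measure detection in the real libraries.

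The members and lists were chosen with earlier results of these data known. The text names all members, close relatives, list genes past the threshold or among the 2 largest changes of their list in HFD or Control+SAMC against Control, and the 5 genes most like and 2 most opposed to A2ml1. Proz, F10, Nr3c1 and Fkbp5 were added for their roles, and Fetub, Kng1 and Crp after their values were seen. Promoters came from RefSeq (GRCr8), matched by gene number for 8 of 10 members. Some list genes and 1 motif are not reported here.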

Additional observations from a re-analysis of the deposited data

Results flagged for a closer look

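Serpina10 differed between the diets in its SAMC difference: all 3 Control+SAMC libraries were above Control and all 3 HFD+SAMC libraries below HFD. The difference of these differences was −2.33 on the log2 scale (adjusted p = 0.0231, edgeR's quasi-likelihood test). The contrast holds the comparison that chose A2ml1, and Serpina10 was listed with earlier results known, so the p-value is a description. The contrast also coincides with the library sets, so diet-dependent change and set cannot be told apart.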

How the results depend on the processing

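Scaling by library totals and leaving out the 4 libraries of low Fga were chosen after seeing the data; the latter leaves 1 HFD library, taken to vary like the other groups. A2ml1 in HFD+SAMC against HFD was −3.38 to −2.82 under all 20 alternatives. Genes past the threshold in HFD against Control (23) numbered 136 with library totals, 3 without low Fga, 4 in a fit of the groups compared, 315 by DESeq2 and 4 to 53 with 1 library left out; in Control+SAMC against Control (19), 5 in the groups compared, 219 by DESeq2 and 3 to 23; in HFD+SAMC against HFD (8), 19 unfiltered, 0 without low Fga, 23 in the groups compared, 249 by DESeq2 and 1 to 27; in HFD+SAMC against Control+SAMC (10), 5 with library totals, 21 unfiltered, 16 with a filter of 1 CPM in 6 libraries, 25 without low Fga, 44 in the groups compared, 272 by DESeq2 and 1 to 45. They numbered, for diet averaged (67), 573, 31 and 538 with library totals, without low Fga and by DESeq2, and 30 to 130; for SAMC averaged (35), 67 unfiltered, 436 by DESeq2 and 13 to 68; for the interaction (23), 2 without low Fga, 128 by DESeq2 and 7 to 19. Members past the threshold rose from 0 to 1 (library totals) and 3 (DESeq2) in HFD against Control and, by DESeq2, to 2 in Control+SAMC against Control, 2 in the diet average and 1 in HFD+SAMC against Control+SAMC; in the interaction the 1 member was lost (0) without low Fga, where Serpina10 was at −2.61 ± 0.44 (SE; adjusted p = 0.174), and was 0 to 1 with 1 library left out (Serpina10 −2.49 to −2.13). Libraries of the same replicate number showed no steady pairing: the 15 such pairs had r = −0.318 to 0.335, with 2 over 0.1. Of 11 libraries, 0 correlated best with their own number in every other group. Those numbered 1 could not, since HFD has no replicate 1. HFD replicate 2 did correlate best with Control replicate 2 (r = 0.335). With the replicate block, 6 genes passed in Control+SAMC against Control, 10 in SAMC averaged, 2 in HFD+SAMC against Control+SAMC, and 9 in the interaction, where 0 members did (Serpina10 −2.19, adjusted p = 0.201). Signs of members that did not pass turned with library totals: in HFD against Control, Ambp 0.21, Itih1 0.0861, Itih2 0.31 and Itih3 0.0165; in Control+SAMC against Control, Ambp 0.11; under SAMC, HFD+SAMC against Control+SAMC, Ambp 0.0146, Itih1 0.0351, Itih3 0.11 and Serpina6 0.10; in the diet average, Ambp 0.11, Itih1 0.0606, Itih2 0.13, Itih3 0.0626 and Serpina10 0.12. Without low Fga, HFD against Control gave Ambp 0.0697 and Itih2 0.21, and Control+SAMC against Control gave A2ml1 −0.018 and Ambp 0.17. Itih2 in HFD against Control was 0.0187 with 1 CPM in 6 libraries and 1e-04 in the groups compared. With 1 library left out, HFD against Control ranged over −0.18 to 0.0132 (Ambp) and −0.16 to 0.14 (Itih2), Control+SAMC against Control over −0.15 to 0.0823 (Ambp), HFD+SAMC against Control+SAMC over −0.12 to 0.074 (Itih3) and −0.29 to 0.20 (Serpina6), and the diet average of Serpina10 over −0.16 to 0.0024. The cause of these changes was not tested. Counts of 75 to 274 limit Serpina10 and of 74 to 167 limit A2ml1 in HFD+SAMC.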

Other observations

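Markers of other liver cells gave values that belong in no comparison above. The 6 Kupffer cell markers summed to 344 to 621 CPM in Control, 431 to 539 in Control+SAMC, 572 to 747 in HFD and 492 to 594 in HFD+SAMC. The 4 sinusoidal endothelium markers summed to 176 to 200 CPM in Control, 125 to 211 in Control+SAMC, 166 to 176 in HFD and 168 to 186 in HFD+SAMC. Pancreatic acinar markers, which carry their own secreted proteases, summed to 27.6 to 162 CPM in Control, 82.0 to 202 in Control+SAMC, 5.58 to 59.5 in HFD and 8.03 to 50.9 in HFD+SAMC, so every Control+SAMC library was above every HFD and HFD+SAMC library. Their part in the members' values was not tested.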
